A study of Mus musculus with 12 samples.

Results

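The transcripts of 10 genes that move zinc, iron or magnesium across membranes, or help to, were measured in oligodendrocytes of Lmna knockout (KO) and control (WT) mice. Lmna encodes A-type lamins, filament proteins under the nuclear envelope. The genes were taken by symbol from the deposited count table, in which all 10 were found among 2398 genes. They are Tmem163, Slc30a1, Slc30a10, Slc39a3 and Slc39a10 for zinc and related metals, Slc40a1 and Steap3 for iron, and Slc41a1, Cnnm3 and Cnnm4 for magnesium. Slc39a3 lies on chromosome 10 and the other 9 lie on chromosome 1.

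The cells were brain cells of C57BL/6 mice that carried the Ndrg1-EGFP reporter of myelinating oligodendrocytes, sorted as positive for GFP and negative for propidium iodide, which enters dead cells. KO mice had the genotype CnpCre/+;Lmnafl/fl, in which Cre recombinase is made from 1 Cnp allele, so recombination is limited to cells that use Cnp, an oligodendrocyte gene. WT mice had the genotype Cnp+/+;Lmnafl/fl, so they carried the same floxed Lmna alleles but no Cre and kept both copies of Cnp. Age is given as postnatal day 60 in the characteristics and as 8 weeks in the growth protocol. Each genotype had 3 biological replicates, with 2 libraries each, and the libraries of a replicate were summed, so n = 3 for each genotype. The labels do not say whether a replicate was 1 animal or a pool.

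Counts in the analysed genes ranged from 3694551 to 6093336 per replicate. These totals cover the genes of chromosome 1 and part of chromosome 10 and are not the depth of a library. Lmna and Cnp are not analysed here, so the recombination was not checked. The 2 libraries of a replicate gave a chi-square of 1.00 to 1.06 per degree of freedom, against 38.1 to 140 between replicates of a genotype, so they differed by about the sampling noise and were counted as 1 sample. Of 37 markers of myelinating oligodendrocytes, 3 were measured, and together they stood at 36345 to 42436 CPM in KO and 33285 to 35177 CPM in WT, where CPM is the count scaled to a common total of the analysed genes. Of these 3, Csrp1 overlapped between the genotypes. Adamts4 and Nfasc were higher in all KO than in all WT replicates without passing the test (edgeR adjusted p = 0.504 and 0.927). Over all genes tested, 8.49% did not overlap between the genotypes, in either direction. Of 18 endothelial markers 3 were measured: Lamc1 stood at 461 to 781 CPM in KO and 412 to 654 CPM in WT, while the selectins Sele and Selp were each at 0 in 2 of 3 replicates of each genotype. Astrocyte markers, 4 of 18 measured, summed to 4620 to 7431 CPM in KO and 3393 to 6219 CPM in WT. Neuron markers, 4 of 23, summed to 241 to 323 CPM in KO and 239 to 521 CPM in WT. Progenitor markers, 3 of 20, summed to 151 to 228 CPM in KO and 149 to 253 CPM in WT. Most of each sum was a single gene. S100b, an astrocyte marker, stood at 3525 to 6689 CPM in KO and 2984 to 5599 CPM in WT. Map2 of neurons stood at 212 to 282 CPM in KO and 220 to 281 CPM in WT. Pcdh15 of progenitors stood at 125 to 139 CPM in KO and 114 to 216 CPM in WT. Neu4, also of progenitors, ranged from 10.8 to 70.4 CPM in KO and from 0 to 28.3 CPM in WT. Scg2 of neurons reached 226 CPM in WT replicate 3 and at most 36.7 CPM in the others.

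Zinc enters the cytosol through proteins of the SLC39 (ZIP) family and leaves it through proteins of the SLC30 (ZnT) family and Tmem163. Variants of TMEM163 cause a hypomyelinating leukodystrophy in people. Oligodendrocytes are the brain cells richest in stained iron, which enters with transferrin or ferritin, is reduced in endosomes and leaves through ferroportin, the product of Slc40a1. Magnesium crosses the plasma membrane through channels, SLC41 proteins and the CNNM family.

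Cells answer to zinc in part through the transcription factor MTF1, which binds metal response elements, and mouse Slc30a1 is a known target of it. The stretches below, from RefSeq on GRCm38.p6, are from 3 of the zinc genes. Slc30a1 and Slc39a3 hold letters of this kind there, and Tmem163 does not. The capitals mark a match to TGCACNC or TGCGCNC on either strand. The Tmem163 stretch covers chr1:127678022-127678051 on the minus strand, the last 30 bases before its RefSeq start, and no match was found anywhere in its window. The windows of Slc30a1 and Slc39a3 are set on a start that lies inside the gene's outermost RefSeq position, by 84 bases for Slc30a1 (start at base 191906781) and by 23 bases for Slc39a3 (start at base 81037315), and distances are counted from these starts. The first Slc30a1 stretch covers chr1:191906727-191906756 on the plus strand and has 36 bases between its match and that start, but lies within the outermost bounds of the gene. The second Slc30a1 stretch covers chr1:191906800-191906829 on the plus strand, with its match from base 31 counted from that start. The Slc39a3 stretch covers chr10:81037441-81037470 on the minus strand, with 137 bases between its match and that start.
Tmem163: gggtggaagggtccctcctgggcaccaatc
Slc30a1 first stretch: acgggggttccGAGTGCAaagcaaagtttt
Slc30a1 second stretch: gcctccgggccGAGCGCAgtcgccgcggac
Slc39a3: catttggtagcTGCACTCatgtttagaaag

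The window searched ran from 250 bases before to 50 bases after a start. Of the 10 genes, 9 had such a window, and 6 of these had a match, namely Slc30a1, Slc30a10, Slc39a3, Slc41a1, Cnnm3 and Cnnm4. In Slc30a10, 2 of the 3 matches overlap each other on opposite strands. Counted by window, 6 of the 13 windows of the 9 genes held a match, against 25.7% of all 32851 RefSeq windows. These letters are thus common in such windows. The windows are not promoters alone: in 7 of the 13 windows of these genes, some of the 250 bases before the start lie in GENCODE exons of the same gene, and in Tmem163 all 250 do. A match is a description of the sequence and not a binding site shown to be used. Slc40a1 had no window.

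None of the transporter transcripts passed the test between KO and WT. Of the 10 genes, 9 had enough counts to be tested, and 0 of the 9 had an adjusted p under 0.05 (edgeR's quasi-likelihood test, p-values adjusted by Benjamini-Hochberg over all genes), where 0% of 1484 genes did. At an unadjusted p under 0.05 the count was 0 of 9, against 3.98% of the 1484 genes. DESeq2 also called 0 of the 10, against 0.354% of the 1977 genes it adjusted, and gave an unadjusted p under 0.05 to 1 of them, Tmem163, against 3.84%. With the 12 libraries taken as separate samples, which counts each replicate more than once, edgeR still called 0 of the transporters, against 3.64% of the 1348 genes tested. The replicates of the genotypes overlapped in all 9 genes, while they did not overlap in 8.49% of the genes tested. The log2 fold change, KO over WT, was above 0 in 5 of the 9 and below 0 in 4, with a median of 0.0015, and over all genes tested it was above 0 in 734 and below 0 in 750, with a median of -0.0064. A single gene cannot reach a two-sided p under 0.1 in an exact permutation test of 3 against 3, so these statements rest on the model across genes.

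**Figure D1:**
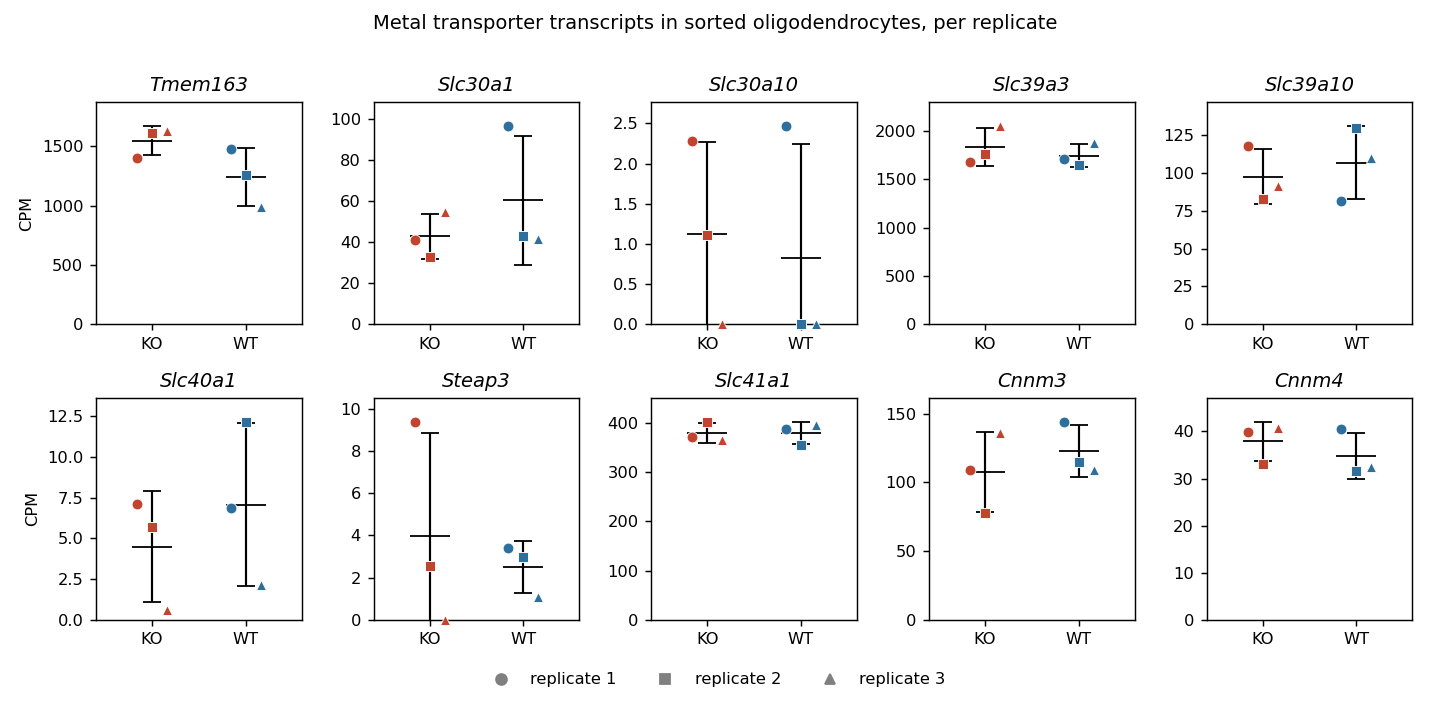
Level of each of the 10 transcripts in CPM (y axis, from 0) in the 3 KO and 3 WT replicates, with the mean (line) and SD (bars, cut at 0). The genotypes overlap in every panel, and the KO replicates of Tmem163 sit between 1405 and 1627 CPM.

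All gene positions are from RefSeq on GRCm38.p6. Tmem163 (chr1:127490342-127678021, minus strand) encodes a zinc efflux transporter and was 1 of the 2 most abundant of the 10 transcripts. It stood at 1405, 1613 and 1627 CPM in KO replicates 1, 2 and 3, against 1480, 1256 and 988 CPM in WT replicates 1, 2 and 3. WT replicate 1 lay above KO replicate 1, so the groups overlapped, and WT replicate 3 was the lowest of the 6. The mean was 1548 ± 124 CPM in KO and 1241 ± 246 CPM in WT (SD, n = 3). The log2 fold change was 0.32 ± 0.15 (SE), with a 95% interval from -0.027 to 0.66, or 0.981-fold to 1.59-fold (edgeR adjusted p = 0.994). With an unadjusted p of 0.0667 it ranked 76 of 1484 genes, and it had the smallest p of the 9 transporters tested.

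The counts behind Tmem163 were large, 22982 reads in KO and 18332 in WT in all. The 2 libraries of a replicate differed by 0.909% to 4.89% of their mean CPM, and counting error alone gives a coefficient of variation of about 1.21%. The replicates varied by 8.03% in KO and 19.8% in WT, which is more than counting error or the difference between libraries. Leaving out 1 replicate at a time gave log2 fold changes from 0.19 to 0.46 in edgeR, all above 0, with adjusted p of 0.754 or more. The smallest came without WT replicate 3, and the largest came without WT replicate 1, with an unadjusted p of 0.0124 and an adjusted p of 0.754. Genes of the immediate early response can be induced by tissue dissociation, and 6 of 26 listed were measured. They summed to 476, 2583 and 1292 CPM in KO replicates 1, 2 and 3. In WT replicates 1, 2 and 3 the sums were 1709, 340 and 3734 CPM. Their sum was highest in WT replicate 3, where Tmem163 was lowest, but next highest in KO replicate 2, where Tmem163 stood at 1613 CPM. Adamts4, a protease of myelinating oligodendrocytes, stood at 8944, 9524 and 9696 CPM in KO replicates 1, 2 and 3, against 7091, 6116 and 6541 CPM in WT replicates 1, 2 and 3. Nfasc, another marker of these cells, stood at 5839, 6062 and 7401 CPM in KO and at 4796, 4205 and 5361 CPM in WT, in the same order. Csrp1, the most abundant of the 3 measured markers, had no such difference. It stood at 27653, 20759 and 22592 CPM in KO and at 23289, 24632 and 21383 CPM in WT. The part of dissociation or of the share of myelinating cells in the Tmem163 values was not tested.

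Among 959 other tested genes of at least 50 CPM, the 5 with profiles nearest to that of Tmem163 over the 6 replicates were R3hdm4, Man1a, Sumo3, Adipor1 and Bpnt1. Likeness was the root mean square difference of log2 CPM after each gene's own mean was taken away. It was 0.074 for R3hdm4, 0.095 for Man1a, which encodes a Golgi mannosidase, 0.11 for Sumo3, a small protein modifier, 0.11 for Adipor1, an adiponectin receptor, and 0.11 for Bpnt1, a nucleotidase, against a median of 0.31 over the 959 genes. R3hdm4 stood at 983, 1039 and 981 CPM in KO replicates 1, 2 and 3 and at 911, 815 and 669 CPM in WT replicates 1, 2 and 3. All genes were read from the same libraries, so likeness is given as a description, with no test. Of the other transporters compared, Slc41a1, which ranked 261, and Slc39a3, which ranked 264, had the smallest difference, 0.26 each. Both varied little, with a highest replicate 1.14 and 1.24 times the lowest, and this measure is small for genes that vary little. In WT replicate 3, where Tmem163 was lowest, both had their highest WT value, 397 and 1879 CPM. Their ranks therefore do not show a profile shared with Tmem163.

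**Figure D2:**
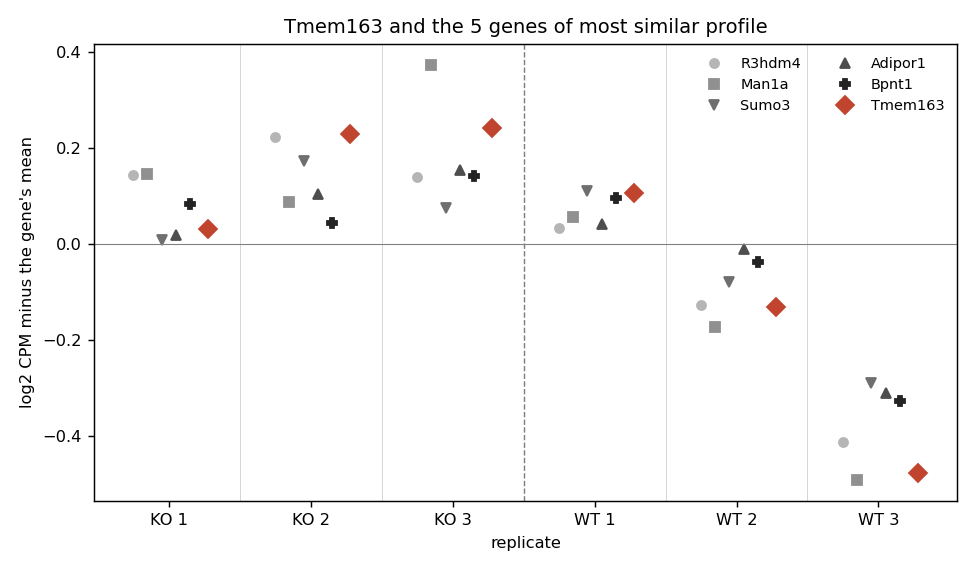
Log2 CPM minus the gene's own mean over the 6 replicates (y axis) for Tmem163 (red diamonds) and the 5 genes of nearest profile (grey), in the 3 KO and 3 WT replicates. All 6 genes are lowest in WT replicate 3, where Tmem163 had 988 CPM.

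Slc39a3 (chr10:81028540-81037338) encodes ZIP3, a zinc importer, and was the other of the 2 most abundant of the 10 transcripts. It stood at 1681, 1762 and 2053 CPM in KO replicates 1, 2 and 3, against 1710, 1650 and 1879 CPM in WT replicates 1, 2 and 3. The values interleaved, with means of 1832 ± 196 CPM in KO and 1747 ± 119 CPM in WT (SD, n = 3). KO over WT, the log2 fold change was 0.07 ± 0.11 (SE), with a 95% interval from -0.19 to 0.33, or 0.876-fold to 1.26-fold (edgeR adjusted p = 0.994). It was -0.02 without KO replicate 3, the replicate with the highest level.

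Slc30a1 (chr1:191906697-191913248) encodes ZnT1, the zinc exporter of the plasma membrane. It stood at 41.3, 32.9 and 54.6 CPM in KO replicates 1, 2 and 3, against 96.7, 43.0 and 41.8 CPM in WT replicates 1, 2 and 3. WT replicate 1 stood above the other 5, which lay between 32.9 and 54.6 CPM. The log2 fold change of -0.50 ± 0.38 (SE), with a 95% interval from -1.37 to 0.38 (edgeR adjusted p = 0.994), was 0.02 without that replicate. WT replicate 1 was also the replicate with the most Kcnj13, an ion channel gene and the 1 measured gene of 14 choroid plexus markers. Kcnj13 stood at 16.2, 1.58 and 4.14 CPM in KO replicates 1, 2 and 3 and at 131, 4.97 and 8.46 CPM in WT replicates 1, 2 and 3. Whether choroid plexus cells add to the Slc30a1 value was not tested.

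Slc39a10 (chr1:46807544-46925776) encodes ZIP10, another zinc importer of the plasma membrane. It stood at 118, 82.8 and 91.7 CPM in KO replicates 1, 2 and 3, against 81.1, 129 and 110 CPM in WT replicates 1, 2 and 3. The lowest and the highest value were both WT. KO over WT, the log2 fold change was -0.13 ± 0.23 (SE), with a 95% interval from -0.66 to 0.39 (edgeR adjusted p = 0.994), and it was 0.03 without WT replicate 2.

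Slc30a10 (chr1:185454848-185468762), which in mice and people exports manganese, was close to absent and was not tested. Its reads numbered 8, 7 and 0 in KO replicates 1, 2 and 3, against 13, 0 and 0 in WT replicates 1, 2 and 3. These counts correspond to 2.28 and 1.11 CPM in KO replicates 1 and 2 and to 2.47 CPM in WT replicate 1. The counts of 0 allow up to 0.621 CPM in KO replicate 3, 0.745 CPM in WT replicate 2 and 0.54 CPM in WT replicate 3, taking 3 counts as the limit, which covers counting error only. A difference between the genotypes was not detectable at this depth.

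The iron genes were both low. Slc40a1 (chr1:45908070-45926532), ferroportin, stood at 7.12, 5.70 and 0.621 CPM in KO replicates 1, 2 and 3, against 6.84, 12.2 and 2.16 CPM in WT replicates 1, 2 and 3. These values rest on 64 reads in KO and 97 in WT in all, and KO replicate 3 had 3 reads. The spread within a genotype exceeded the difference between them. The log2 fold change was -0.65 ± 0.97 (SE), with a 95% interval from -2.85 to 1.55 (edgeR adjusted p = 0.994), and it was 0.0012 without WT replicate 2.

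Steap3 (chr1:120226414-120271081), the ferrireductase that readies transferrin iron for transport out of endosomes, stood at 9.40, 2.53 and 0 CPM in KO replicates 1, 2 and 3, against 3.42, 2.98 and 1.08 CPM in WT replicates 1, 2 and 3. KO replicate 1 held 33 of the 49 KO reads, and the count of 0 in KO replicate 3 allows up to 0.621 CPM. KO over WT, the log2 fold change was 0.65 ± 1.28 (SE), with a 95% interval from -2.26 to 3.56 (edgeR adjusted p = 0.994). Without KO replicate 1 it was -0.93, and limma-voom with all replicates gave -0.85, so its direction depended on the replicate and the method.

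Genes of other cell types varied between replicates too. Of 20 mural and fibroblast markers 8 were measured, and they summed to 1001 to 1309 CPM in KO and 846 to 1068 CPM in WT. Of the 3 most abundant, Fn1 and Dcn were both highest in KO replicate 1 and lowest in WT replicate 3, unlike Col6a2. Col6a2 stood at 397, 846 and 678 CPM in KO replicates 1, 2 and 3 and at 434, 434 and 711 CPM in WT replicates 1, 2 and 3, lowest in KO replicate 1, where Steap3 was highest. Fn1 stood at 330, 103 and 78.0 CPM in KO replicates 1, 2 and 3 and at 99.2, 196 and 38.5 CPM in WT replicates 1, 2 and 3, highest in KO replicate 1. Dcn stood at 181, 137 and 112 CPM in KO replicates 1, 2 and 3 and at 127, 163 and 28.8 CPM in WT replicates 1, 2 and 3, also highest in KO replicate 1. Of the other tested markers, Col6a1 and Col3a1 were highest in KO replicate 1 too, at 244 and 123 CPM. Col5a2 was highest in KO replicate 2 and Lum in WT replicate 2. Of 20 microglia and macrophage markers 2 were measured, Ptprc and Fcer1g, and they summed to 47.0 to 242 CPM in KO and 41.5 to 85.5 CPM in WT. The part of such cells in the values of Slc40a1 and Steap3 was not tested. In RNA from sorted cells, a change in the share of a cell type and a change in RNA per cell cannot be told apart.

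Slc41a1 (chr1:131828012-131848863), a magnesium transporter of the plasma membrane, was the steadiest of the 10. It stood at 371, 403 and 366 CPM in KO replicates 1, 2 and 3, against 388, 355 and 397 CPM in WT replicates 1, 2 and 3. The highest replicate was 1.14 times the lowest, and the means were 380 ± 20.1 CPM in KO and 380 ± 22.2 CPM in WT (SD, n = 3). The log2 fold change was 0.0015 ± 0.11 (SE), with a 95% interval from -0.26 to 0.26, or 0.838-fold to 1.196-fold (edgeR adjusted p = 0.996). Its sign changed with the scaling, to -0.03 with total counts alone, and without KO replicate 2 or WT replicate 2, to -0.04 each.

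Cnnm3 and Cnnm4 encode relatives in the CNNM family. CNNM4 takes part in magnesium extrusion, and its loss in people causes Jalili syndrome of the retina and teeth. The genes lie next to each other on chromosome 1, at chr1:36511867-36528237 and chr1:36471597-36508776, with 3090 bases between them. Cnnm3 stood at 109, 77.6 and 136 CPM in KO replicates 1, 2 and 3, against 144, 115 and 109 CPM in WT replicates 1, 2 and 3. KO replicates 1 and 2 lay below every WT replicate, the first by less than 1 CPM, and KO replicate 3 lay between the WT values. KO over WT, the log2 fold change of -0.19 ± 0.23 (SE), with a 95% interval from -0.72 to 0.34 (edgeR adjusted p = 0.994), was 0.0015 without KO replicate 2.

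Cnnm4 stood at 39.9, 33.1 and 40.8 CPM in KO replicates 1, 2 and 3, against 40.5, 31.5 and 32.4 CPM in WT replicates 1, 2 and 3. The log2 fold change was 0.12 ± 0.28 (SE), with a 95% interval from -0.51 to 0.75 (edgeR adjusted p = 0.994). It was above 0 in every edgeR fit that left out a replicate, from 0.064 to 0.24. A long non-coding RNA gene overlaps Cnnm4 in RefSeq, and Slc30a1 and Slc30a10 each overlap another, so their counts are uncertain to that extent, and which strand was counted was not given in the sources used here.

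**Figure D3:**
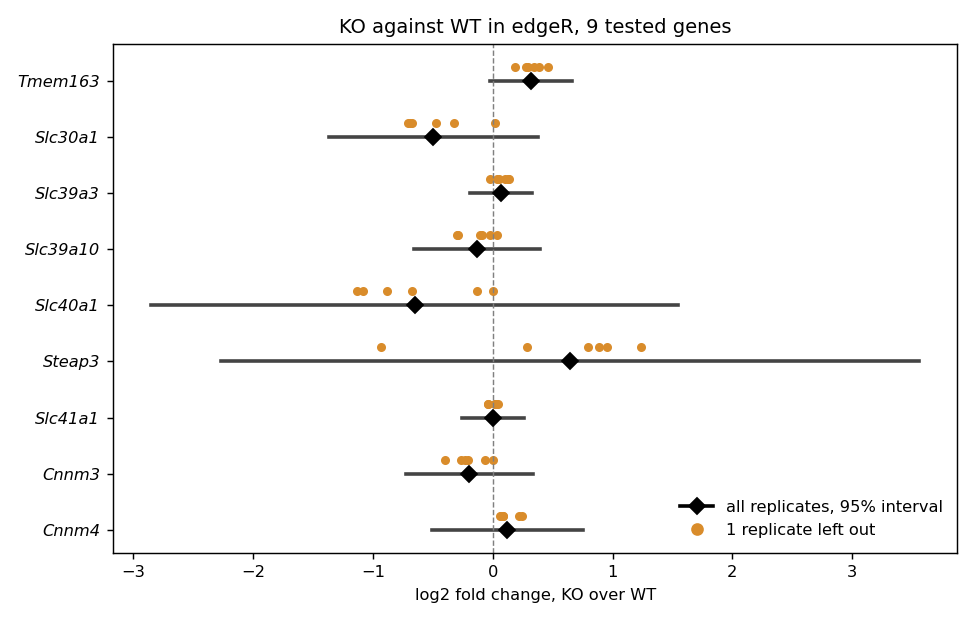
Log2 fold change, KO over WT (x axis), of the 9 tested genes in edgeR, with the 95% interval (line) and the value with each replicate left out in turn (orange). All 9 intervals include 0, from the narrow one of Slc41a1 (-0.26 to 0.26) to the wide one of Steap3 (-2.26 to 3.56).

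The intervals show how closely each gene was measured. For 6 of the 9 genes the whole interval fell between -1 and 1 on the log2 scale, and this held for 63.6% of all genes tested. Slc30a1, Slc40a1 and Steap3 were the 3 genes outside that range. A p above the threshold does not show that the genotypes are alike, and changes of the size inside these intervals cannot be told from none.

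Set on a scale per length of the longest transcript, the 10 genes ran from abundant to nearly silent. Slc39a3 led with a mean of 471 CPM per kb over the 6 replicates and Tmem163 followed with 399.9 CPM per kb. Slc39a3 was above Tmem163 in 6 of 6 replicates, though their ranges overlapped. Both stood above at least 86.8% of the 1402 tested genes that had a length. Slc41a1 came next with 80.9 CPM per kb, with its range apart from those of its neighbours in the order, and the median of tested genes was 42.0 CPM per kb.

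The middle of the order was not resolved. Cnnm3 averaged 21.7 CPM per kb and Slc39a10 averaged 18.6 CPM per kb, and each was the higher of the pair in 3 of 6 replicates. Slc30a1 averaged 9.86 CPM per kb and Cnnm4 averaged 8.00 CPM per kb, with ranges that overlapped. Slc40a1 at 1.47 CPM per kb, Steap3 at 0.627 CPM per kb and Slc30a10 at 0.167 CPM per kb came last, and their ranges overlapped too. With the union of all annotated exons as the length, the order of the 10 genes was the same, and Slc40a1 averaged 0.641 CPM per kb. Of the 10 genes, the most abundant were thus a zinc importer and a zinc efflux transporter, and the exporters Slc30a1 and Slc40a1 stood below both in 6 of 6 replicates.

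**Figure D4:**
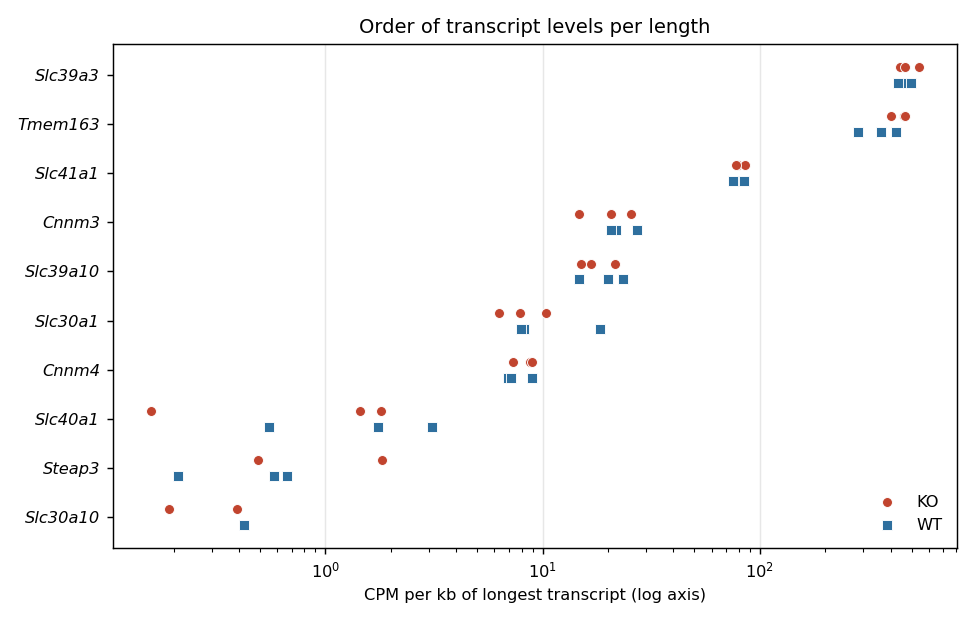
Level of each transcript per kb of its longest transcript (x axis, log scale) in the KO (circles) and WT (squares) replicates, in order of the mean over the 6 replicates. Values of 0, in 1 replicate of Steap3 and 3 of Slc30a10, are not drawn, and Slc39a3 and Tmem163 stand apart from the rest at 283 to 541 CPM per kb.

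Ratios within a replicate set pairs of related transporters side by side, for 3 pairs chosen after their levels were seen. The ratio of the importer Slc39a3 to the efflux transporter Tmem163, per kb, was 1.1, 1.004 and 1.16 in KO replicates 1, 2 and 3 and 1.06, 1.21 and 1.75 in WT replicates 1, 2 and 3. The genotypes overlapped (exact permutation test, two-sided p = 0.3, adjusted p = 0.45 over the 3 ratios). The ratio of the importer Slc39a10 to the exporter Slc30a1 was 2.72, 2.40 and 1.601 in KO replicates 1, 2 and 3 and 0.800, 2.87 and 2.51 in WT replicates 1, 2 and 3 (exact p = 0.9, adjusted p = 0.9). The ratio of Cnnm3 to Cnnm4 was 2.34, 2.01 and 2.86 in KO replicates 1, 2 and 3 and 3.07, 3.13 and 2.89 in WT replicates 1, 2 and 3. All KO values of this ratio lay below all WT values, by as little as 2.86 against 2.89, with an exact p of 0.1, the smallest that 3 against 3 allows, and an adjusted p of 0.3.

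Of the other listed genes of metal handling, 7 were measured and tested, and 0 of the 7 were called in edgeR, against 0% of all genes tested. At an unadjusted p under 0.05 the count was 0 of 7, against 3.98%. Their log2 fold changes were above 0 in 3 and below 0 in 4, with a median of -0.053, and their genotypes overlapped in 7 of 7, where 8.49% of all genes tested did not overlap. By list, the tested genes, transporters above included, numbered 4 of 31 for zinc, 4 of 39 for iron, 3 of 50 for mitochondrial iron and heme and 5 of 28 for magnesium. The median log2 fold change was -0.032 for zinc, 0.28 for iron, -0.070 for mitochondrial iron and heme and 0.0015 for magnesium, and the sign of each changed under some alternatives. For iron it was -0.44 with limma-voom, -0.19 with the replicate block, -0.45 without KO replicate 1 and 0.0078 without KO replicate 2. For mitochondrial iron and heme it was 0.105 without WT replicate 3, for zinc 0.037 without KO replicate 2 and for magnesium -0.025 with total counts alone. Of 23 genes for copper and manganese only Slc30a10 was measured. Lists with so few measured genes do not speak for their pathways.

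Among these genes, Ptp4a1, a phosphatase that binds CNNM proteins, stood at 14852 ± 1089 CPM in KO and 15407 ± 1692 CPM in WT (SD, n = 3). Cisd1, an iron-sulfur protein of the outer mitochondrial membrane, stood at 2389 ± 133 CPM in KO and 2530.1 ± 189 CPM in WT. Ppox, an enzyme of heme synthesis, stood at 555 ± 65.4 CPM in KO and 583 ± 149 CPM in WT. Abcb6, a porphyrin transporter, stood at 287 ± 51.5 CPM in KO and 261 ± 30.6 CPM in WT. The genotypes overlapped in each of these 4 genes, with an edgeR adjusted p of 0.994.

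Among the iron genes, Flvcr1, a membrane transporter described for heme and choline, stood at 107 ± 16.1 CPM in KO and 113 ± 21.7 CPM in WT (SD, n = 3). Slc11a1, a metal transporter of phagocytes, stood at 14.0, 28.3 and 9.72 CPM in KO replicates 1, 2 and 3, against 16.3, 5.47 and 9.54 CPM in WT replicates 1, 2 and 3. It was highest in KO replicate 2, which also had the highest sum of the microglia and macrophage markers, 242 CPM, and their part in this value was not tested. Slc41a2, a relative of Slc41a1, stood at 33.6, 34.4 and 63.3 CPM in KO replicates 1, 2 and 3 and at 31.0, 30.6 and 42.0 CPM in WT replicates 1, 2 and 3, and KO replicate 3 stood above the other 5.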

How the data were processed

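The authors deposited raw read counts per gene and library for 12 libraries, made from sorted cells of 3 biological replicates of each genotype. CASAVA 1.8.2 and SAMtools 1.4.1 are named in the submitters' processing notes, as are fastp, FastQC, featureCounts, HISAT2 and DESeq2 1.38.1, with build mm10. Settings, annotation and strand use were not given there. Of 2398 complete lines, 2226 had an identifier with a RefSeq symbol, and 172, with 0.552% of the counts, had none. A further 1 incomplete line was left out.

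The 2 libraries of a replicate were summed. The deposited control columns were matched to the WT titles by their numbers. The genotypes were compared, KO over WT, by edgeR 4.0.16 (R 4.3.3) after filterByExpr, with TMM factors from 0.951 to 1.05, robust quasi-likelihood dispersions and adjustment by Benjamini-Hochberg, threshold 0.05. The SE was taken as the absolute log2 fold change over the root of F. CPM refers to counts in the tested genes. The p-values of edgeR weigh the difference between the genotypes against the spread between these samples, estimated with information from all genes. Levels per kb use GENCODE lengths. The fits were also run on counts simulated with the dispersions estimated from these data. Such counts cannot test those dispersions, and no result given here rests on them.

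All 10 transporters are described. Other genes were named by rule. Of each metal list these were those called and the 3 of highest CPM, and for Tmem163 the 5 nearest in profile. Of each cell type list up to 3 of highest CPM were named, but only the highest for astrocytes, neurons and progenitors. Sele and Selp, below the count filter, and Col6a1, Col3a1, Col5a2, Lum, Neu4 and Scg2 were named after their values were seen. The transporters and lists were chosen with earlier results of these data known. Alternatives changed the scaling, the filter, the tool (DESeq2 1.42.0, limma-voom 3.58.1), the use of the 2 libraries, a replicate block and the replicates included.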

Additional observations from a re-analysis of the deposited data

How the results depend on the processing

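None of the 9 tested transporters was called under any of the 23 alternatives, which gave 201 values, and 19 of these had the opposite sign. Tmem163 and Cnnm4 kept their sign under all 23. That of Slc41a1 changed with total counts (-0.025) and with the second library only (-0.012), and that of Steap3 with limma-voom (-0.85) and with the replicate block (-0.29). Leaving out each replicate gave, in edgeR and then in DESeq2, log2 fold changes from -0.40 to 0.0015 and -0.40 to 0.0094 for Cnnm3, -0.71 to 0.017 and -0.70 to 0.028 for Slc30a1, -0.30 to 0.033 and -0.29 to 0.039 for Slc39a10, and -0.023 to 0.13 and -0.020 to 0.14 for Slc39a3. The ranges were -1.14 to 0.0012 and -1.14 to -0.0023 for Slc40a1, -0.039 to 0.042 and -0.032 to 0.040 for Slc41a1, with -0.031 in DESeq2 without KO replicate 2, and -0.93 to 1.24 and -0.96 to 1.25 for Steap3. The cause was not tested. The lowest unadjusted p of Tmem163 was 0.00385 in DESeq2 without WT replicate 1 (adjusted p = 0.197), and its lowest adjusted p was 0.103, with 12 separate libraries.

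The counts of genes called, 0 higher and 0 lower, became 6 and 1 with DESeq2, 31 and 18 with 12 separate libraries, and 7 and 0 with duplicateCorrelation. In DESeq2 with a replicate left out they ranged from 0 to 11 higher and from 0 to 4 lower, with 3 and 2 without WT replicate 3. The median of the mitochondrial iron and heme list ranged from -0.118 to 0.105 in edgeR when a replicate was left out. That of the iron list, 0.28 with all replicates, ranged from -0.45 to 0.44 in the same fits, and was below 0 with limma-voom (-0.44), the replicate block (-0.19) and each other use of the libraries, in which Steap3 was not tested. Steap3 and Slc40a1 had no value in fits whose filter they did not pass.

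The labels do not say that replicate numbers pair samples, so the numbers were not taken as pairs. Deviations from the group mean correlated at -0.0032, -0.30 and 0.14 between KO and WT replicates of the same number. Between replicates of different number the correlations ran from -0.338 to 0.347. With 3 replicates of each genotype, these values cannot decide whether a number marks a pair. The replicate block left 0 genes called and gave Tmem163 a log2 fold change of 0.34. Slc30a10, Slc40a1 and Steap3 had fewer than 50 counts a replicate on average, and Slc30a10 was too low to be tested. For Slc40a1, counting error at the mean count gives a coefficient of variation of about 19.3%. Its replicates varied by 76.3% in KO and 71.0% in WT. For Steap3 the counting value was 26.6%, and its replicates varied by 122% in KO and 49.9% in WT. Low counts and the spread between replicates thus both limited Slc40a1 and Steap3.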
